A study of Caenorhabditis elegans with 161 samples.

Results

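The eggshell formation genes are 10 genes of the nematode Caenorhabditis elegans whose proteins build the vitelline, chitin and chondroitin proteoglycan layers around the new zygote: cpg-1, cpg-2, cpg-3, egg-1, egg-2, egg-3, chs-1, cbd-1, perm-2 and perm-4. They were found by symbol among the 20687 genes of the count tables, and all 10 were present. The sequence names under which they are listed are C07G2.1, B0280.5, R06C7.4, B0244.8, R01H2.3, F44F4.2, T25G3.2, H02I12.1, C44B12.1 and C44B12.5, in the order of the symbols. Whole embryos of 20 strains, 19 mutation-accumulation lines and the laboratory strain N2, were collected at 0, 60, 180, 270, 440, 650 and 830 min after the 4-cell stage, with 1 library of 10 pooled embryos per strain and stage. A mutation-accumulation line is passed through narrow bottlenecks for many generations, so that new mutations are kept with little selection. Strain 522, one of these lines, was profiled again in 21 libraries, 3 at each of 7 time points, which are named here by the letters A to G because the time given for most of them contradicts their titles. A to G are set beside the stages in order. According to the labels, adults were cut open to release the embryos, which were rinsed in bleach, collected at the 4-cell stage and incubated at 20°C. The 140 strain libraries and the 21 repeats are the samples of every comparison, and strains are the replicates of a stage.

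The nematode eggshell is laid down from outside to inside within minutes of fertilization. A vitelline layer on the oocyte becomes the outer coat, chitin is polymerized beneath it by a synthase in the egg membrane, and chondroitin proteoglycans released from cortical granules form the layer below, before a lipid-rich permeability barrier seals the embryo. Transcripts of eggshell genes are generally made in the mother's germ line and loaded into the oocyte. Where those of perm-2 and perm-4 are made was not tested here. The shell is complete before the 4-cell stage, the first stage measured here.

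Total counts were 5653 to 525902 per strain library (median 57199) and 58543 to 623958 per repeat (median 219346). In a strain library of median depth 1 count is worth 17.5 CPM, the unit of level used here (a count scaled by the library's total over all genes), and a count of 0 allows up to 52.4 CPM, taking 3 counts as its limit. In the shallowest library 1 count is worth 177 CPM. CEL-Seq counts the 3′ ends of polyadenylated transcripts, so the values are not divided by transcript length, and levels of different genes are not ranked against each other. CPM is a share of each library, and fewer cells of a type and less RNA per cell cannot be told apart in pools of whole embryos. The 7 genes of the oocyte and early embryo list (among them oma-1, oma-2, mex-5 and pos-1) summed to 49 to 528 CPM at 830 min and to 9511 to 21829 CPM at 0 min, so the earliest libraries carry the maternal messages their label calls for. The 28 major sperm protein genes had a median sum of 0 CPM at each stage. Single libraries held more, with sums of up to 360 CPM at 0 min, 211 CPM at 180 min and 247 CPM at 440 min.

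The summed level of the 10 genes at 0 min was 6401 ± 1715 CPM (mean ± SD, n = 20 at each stage). It was 1220 ± 647 CPM at 60 min, 418 ± 195 CPM at 180 min and 272 ± 236 CPM at 270 min. Later sums were 273 ± 220 CPM (440 min), 324 ± 389 CPM (650 min) and 78.9 ± 78 CPM (830 min). In the repeats the sum was 6805 ± 727 CPM at A (mean ± SD, n = 3 at each letter), 1748 ± 197 at B, 907 ± 533 at C, 568 ± 279 at D, 246 ± 112 at E, 670 ± 248 at F and 61.6 ± 14.3 at G. Both courses thus had a steep early part and a last drop. Between them the strain means lay between 272 and 324 CPM from 270 to 650 min, while the means of the repeats went on falling to E and were higher at F.

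**Figure D1:**
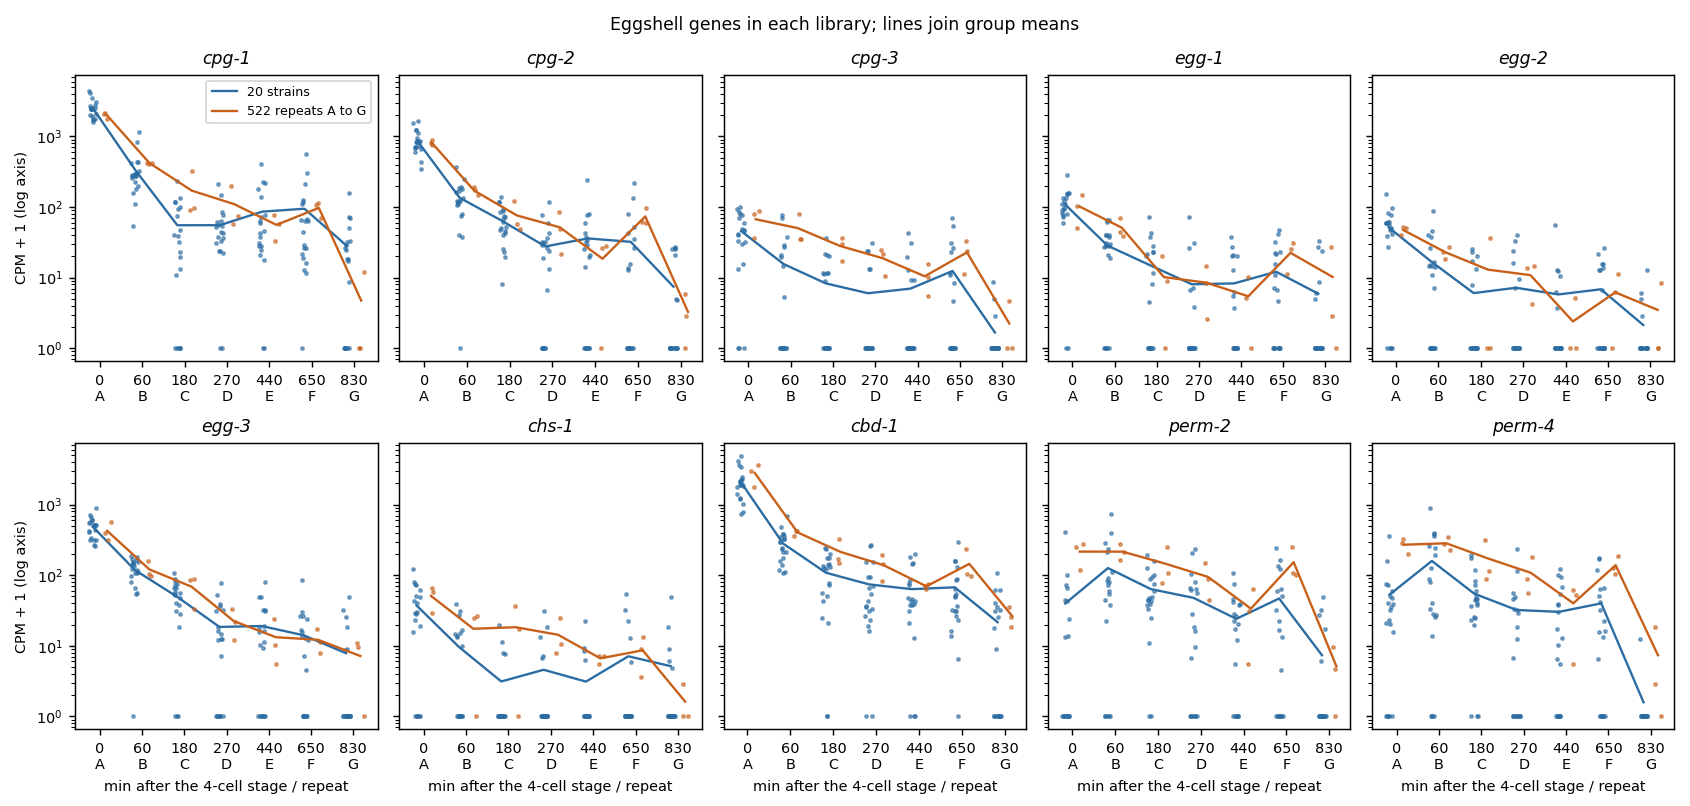
Level of each eggshell gene in every library, as CPM + 1 on a log axis, at the 7 stages (blue points, 20 strains) and in the repeats A to G of strain 522 (orange points, 3 libraries each), with lines joining the group means. Points at the bottom of a panel are libraries with 0 counts; 8 genes are highest at the first time point in both sets, while the strain means of perm-2 and perm-4 are highest at 60 min.

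The question set by the time course is how fast these messages leave the embryo. Between 0 and 60 min, the 4 eggshell genes abundant enough to be tested in the strains all fell. These were cpg-1 and cpg-2, which encode chondroitin proteoglycans with chitin-binding domains, egg-3, which encodes a phosphatase-like protein that holds chitin synthase and other regulators at the egg cortex, and cbd-1, which encodes a chitin-binding protein of the vitelline layer. Of all 1344 genes tested, 21.9% were called lower, so a fall by itself was common among abundant transcripts. A gene was called at a Benjamini-Hochberg adjusted p under 0.05 and at least a 2-fold change in edgeR's quasi-likelihood test, adjusted over all genes tested. Genes that are high at 1 of 2 time points pass the filter through it, so the tested members do not stand for all 10. With no filter the median log2 fold change of the 10 was -1.59, and that of all genes was 0.41. In each of these 4 genes all 20 strains were lower at 60 min than at 0 min.

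The level of cpg-1 at 60 min ran from 53 CPM through a median of 280 to 1143 CPM, and at 0 min from 1612 through 2483 to 4434 CPM. The stages did not overlap, and the log2 fold change of 60 over 0 min was -2.76 ± 0.20 (SE, adjusted p = 5.11e-18 by edgeR). The level of cbd-1 at 60 min ran from 106 through a median of 268 to 700 CPM, and at 0 min from 738 through 1923 to 4924 CPM. These stages did not overlap either, and the log2 fold change was -2.82 ± 0.21 (SE, adjusted p = 1.99e-17 by edgeR). For cpg-2 the 60 min libraries ran from 0 through a median of 120 to 367 CPM, and the 0 min libraries from 339 through 835 to 1665 CPM. The ranges of cpg-2 overlapped slightly, and its log2 fold change was -2.50 ± 0.19 (SE). The level of egg-3 ran from 0 through a median of 120 to 188 CPM at 60 min and from 255 through 510 to 909 CPM at 0 min, with no overlap and a log2 fold change of -1.92 ± 0.17 (SE, adjusted p = 4.93e-15 by edgeR).

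Expressed as the time in which the share of a message in the library drops 2-fold, the first hour gave 21.3 min for cbd-1 (19.8 to 23 min at 1 SE either way), 21.8 min for cpg-1 (20.3 to 23.5 min), 24.04 min for cpg-2 (22.4 to 26.0 min) and 31.2 min for egg-3 (28.7 to 34.2 min). These are apparent times relative to all gene counts, which also change as new transcripts are made. Over the following 120 min the apparent time for a 2-fold drop was 47.2 min for cpg-1 (42.0 to 53.9 min) and 85.4 min for cbd-1 (72.2 to 104 min). The difference between the intervals, which share the 60 min libraries, was not tested. The fall was uneven between the 6 strains listed first in the table and the other 14, a split described below. With no filter the log2 fold changes of cpg-1 were -1.95 ± 0.21 and -2.98 ± 0.17 (SE) in the first hour. Over the next 120 min they were -3.67 ± 0.33 and -1.92 ± 0.25. Those of cbd-1 were -1.90 ± 0.22 and -2.74 ± 0.16, then -2.74 ± 0.36 and -1.16 ± 0.22. The ranges above do not cover this difference, which was not tested.

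The other 6 genes were below the count filter (edgeR's filterByExpr), and they were tested only in a fit with no filter, where 11.5% of 13795 genes were called lower and 14.6% higher at 60 min. In that fit egg-1 and egg-2, which encode receptor-like proteins of the oocyte surface needed for sperm entry, fell. Their log2 fold changes were -1.55 ± 0.28 and -1.53 ± 0.37 (SE), and egg-1 was lower at 60 min in 18 of 20 strains. The level of egg-1 was 27.4 ± 20.8 CPM at 60 min and 107 ± 61 CPM at 0 min (SD, n = 20 each), and that of egg-2 was 15.9 ± 21.8 CPM at 60 min and 50.3 ± 36.5 CPM at 0 min. These are close paralogs, and reads may be split between them. The eggshell chitin synthase chs-1 averaged 8.64 ± 11.8 CPM at 60 min and 36.3 ± 32.9 CPM at 0 min, with a log2 fold change of -1.63 ± 0.42 (SE). The chondroitin proteoglycan gene cpg-3 averaged 14.6 ± 23 CPM at 60 min and 44.6 ± 30.8 CPM at 0 min, with a log2 fold change of -1.23 ± 0.40 (SE). Its call was lost without strain 570, where the log2 fold change was -0.97 (adjusted p = 0.0558 by edgeR). So in the fit to all 20 strains with no filter 8 of the 10 genes fell in the first hour, all but perm-2 and perm-4. The strains were also fitted in 2 parts, the 6 strains listed first in the table and the other 14, a split made after the values were seen that no label names as a batch. Shares over all genes are given only for fits to all strains or all repeats. Counts of genes called in a part, with a block or without some libraries therefore have no background beside them. In the first 6 strains 7 genes were lower, chs-1 being lost (adjusted p = 0.0634 by edgeR). In the other 14 strains 6 were lower, as egg-2 (adjusted p = 0.0532) and cpg-3 (log2 fold change -0.73, adjusted p = 0.286 by edgeR) were lost.

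perm-2 and perm-4 encode proteins of the outer shell layers that are needed for a tight permeability barrier, and the RefSeq annotation of assembly WBcel235 lists 0 genes between them. Their early course differed from that of the other 8. The level of perm-2 was 125 ± 179 CPM at 60 min and 38.7 ± 90.8 CPM at 0 min (SD, n = 20 each), with 5 libraries at 0 counts at 60 min and 11 at 0 min. The level of perm-4 was 158 ± 219 CPM at 60 min and 52.1 ± 81.7 CPM at 0 min, with 4 libraries at 0 counts at 60 min and 5 at 0 min. Their SDs exceed their means and the stages overlap. With no filter both were called higher at 60 min. The log2 fold change was 1.47 ± 0.43 for perm-2 (SE, adjusted p = 0.00345 by edgeR) and 1.501 ± 0.404 for perm-4 (SE, adjusted p = 0.00157), and 12 of 20 strains were higher for each. The yolk protein genes, 6 vit genes known to be transcribed in the gut of the adult hermaphrodite and used here as its markers, moved with them: 3 of the 6 were called higher in the same fit, with a median log2 fold change of 1.03. The summed yolk list was at 1809 ± 1953 CPM at 60 min and 962 ± 1469 CPM at 0 min (SD, n = 20 each), and its part in the rise was not tested.

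The rise of this pair did not hold in every subset of strains. The call of perm-2 was lost without strain 522, with a log2 fold change of 1.06 (adjusted p = 0.0569 by edgeR), and without the strains that had a shallow library, with 0.93 (adjusted p = 0.0796). In the first 6 strains the log2 fold changes were -0.03 for perm-2 and -0.39 for perm-4, neither called, and 0 of the 6 yolk genes were called higher. In the other 14 strains both were called higher, with 1.83 and 1.72, and so were 4 of the 6 yolk genes. No share over all genes is given for these parts. They also differed in depth, with totals at 0 min of 41510 to 351153 counts in the first 6 strains and 11788 to 155217 in the other 14. The part of depth in this difference was not tested. The label of maternal leftovers that decay therefore describes 8 of these genes at the start of the course in the fit to all strains with no filter. Among them chs-1 was not called in the first 6 strains, and cpg-3 and egg-2 were not called in the other 14. From A to B in the repeats, with no filter, cpg-3, egg-2 and chs-1 were not called either. Their log2 fold changes there were negative, at -0.19, -0.86 and -1.07. For perm-2 and perm-4 the data of the first hour are divided in direction.

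Between 60 and 180 min the fall went on. Of 1330 genes tested 22.2% were called lower, and the 2 eggshell genes that passed the filter were both lower: cpg-1 at 54.2 ± 61.5 CPM at 180 min and 338 ± 247 CPM at 60 min (SD, n = 20 each; log2 fold change -2.54 ± 0.32, SE), and cbd-1 at 107 ± 74 CPM at 180 min and 280 ± 145 CPM at 60 min (log2 fold change -1.41 ± 0.26, SE). With no filter, where the background was 14.2% of 14502 genes, 9 of 10 were lower. The exception was cpg-3, with a log2 fold change of -0.69 ± 0.47 (SE, adjusted p = 0.262 by edgeR). With strain as a replicate block 6 were lower, the calls of egg-2, chs-1 and perm-2 being lost. In the first 6 strains 5 were lower, and there perm-2 and perm-4 had log2 fold changes of 0.40 and 0.81, neither called. In the other 14 strains 7 were lower, cpg-2 and egg-3 being under 2-fold (-0.96 and -0.94). Of the 6 yolk genes 5 were called lower in all 20 strains, 0 in the first 6 and 5 in the other 14. In the fit to all 20 strains the 7 genes of the oocyte and early embryo list were all called lower.

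From 180 to 650 min the eggshell genes stayed low, and none passed the count filter in any of the 3 pairs of stages. With no filter cpg-2 and egg-3 were lower at 270 min than at 180 min, where the background was 4.39% of 14519 genes. Their log2 fold changes were -1.26 ± 0.35 and -1.48 ± 0.37 (SE), and cpg-2 averaged 26.7 ± 29.8 CPM at 270 min and 62.3 ± 35.1 CPM at 180 min. In the first 6 strains alone 0 genes were called. From 270 to 440 min edgeR called 0 of the 10, with 2 at an unadjusted p under 0.05, while 23.4% of 15424 genes were called higher. With strain as a replicate block 1 was called higher. From 440 to 650 min chs-1 was called higher, against a background of 21.1% of 16533 genes, at 6.11 ± 13.8 CPM at 650 min and 2.11 ± 5.20 CPM at 440 min (log2 fold change 1.66 ± 0.55, SE). That call rested on 20 counts over all strains at 650 min and 5 at 440 min, and with strain as a replicate block it was lost (adjusted p = 0.078 by edgeR). It was not called in either part of the strains, for which no share over all genes is given. In the first 6 strains 5 other eggshell genes were higher at 650 min: cpg-1, cpg-2, cbd-1, perm-2 and perm-4. There cbd-1 had a log2 fold change of 2.13 ± 0.51, perm-4 of 1.65 ± 0.52 and perm-2 of 1.56 ± 0.53 (SE), and 5 of the 6 yolk genes were also called higher. In the other 14 strains 0 of the 10 eggshell genes and 0 of the 6 yolk genes were called. In the fit to all 20 strains 2 of the 6 yolk genes and 2 of the 7 oocyte and early embryo genes were called higher. The first 6 strains were uneven. The sum of the 10 genes was 1630, 978, 716 and 284 CPM at 650 min in strains 550, 555, N2 and 575. At 440 min it was 524, 314, 368 and 91.3 CPM. In strains 570 and 502 the sum was lower at 650 min (61.6 and 131 CPM) than at 440 min (170 and 165 CPM).

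Between 650 and 830 min the remnants fell again. None passed the count filter, and with no filter 7 of the 10 were lower at 830 min, where 9.56% of 16763 genes were called lower. The steepest were perm-4 and perm-2, with log2 fold changes of -4.60 ± 0.67 and -3.44 ± 0.64 (SE). All 6 yolk genes were called lower in the same fit, with a median of -3.38, and the yolk sum was at 61.3 ± 106 CPM at 830 min and 581 ± 816 CPM at 650 min (SD, n = 20 each). Of the 7 oocyte and early embryo genes 5 were also called lower in that fit, with a median of -1.27. Their sum was at 219 ± 141 CPM at 830 min and 477 ± 539 CPM at 650 min. Over all 20 strains perm-4 had 1 count at 830 min and 97 at 650 min, a ratio of 0.0114 (exact 95% interval 0.000285 to 0.0648, counting error only). For perm-2 the counts were 5 at 830 min and 92 at 650 min, a ratio of 0.0599 (0.0190 to 0.145). With strain as a replicate block 5 were lower, the calls of cpg-3 (adjusted p = 0.0827 by edgeR) and egg-3 (adjusted p = 0.132) being lost, and egg-3 was also lost without the strains that had a shallow library (adjusted p = 0.0524). In the first 6 strains 7 were lower, among them egg-1 but not egg-3, and in the other 14 strains 2 were, perm-2 and perm-4. egg-1, egg-2 and chs-1 were not called in the fit to all strains, with adjusted p between 0.0597 and 0.168 by edgeR.

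Over the whole course, from 0 to 830 min, the 4 tested genes were lower, as were 43.7% of the 1151 genes tested. The log2 fold changes were -5.71 ± 0.26 for cpg-1, -6.28 ± 0.30 for cpg-2, -5.63 ± 0.31 for egg-3 and -5.78 ± 0.30 for cbd-1 (SE). The median of all genes tested was -0.40, and RLE scaling moved it to -0.78. With no filter all 10 were lower, where the background was 18.7% of 15963 genes, with a median log2 fold change of -4.02 for the 10 and 0.82 for all genes. In the first 6 strains alone chs-1 and perm-2 were not called. Pooled over strains, cpg-1 kept 0.0124 of its 0 min share at 830 min (exact 95% interval 0.00928 to 0.0162, counting error only) and cpg-2 kept 0.00689 (0.00355 to 0.0121). The share kept was 0.0149 for cbd-1 (0.0108 to 0.0202), and it was 0.101 for chs-1 (0.0392 to 0.222), which had 7 counts at 830 min and 63 at 0 min. For cpg-3 it was 0.0376 (0.00757 to 0.114), from 3 counts at 830 min and 73 at 0 min. Transcripts of cpg-1 were still counted in 13 of the 20 libraries at 830 min, since 7 were at 0, and perm-4 in 1 library.

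**Figure D2:**
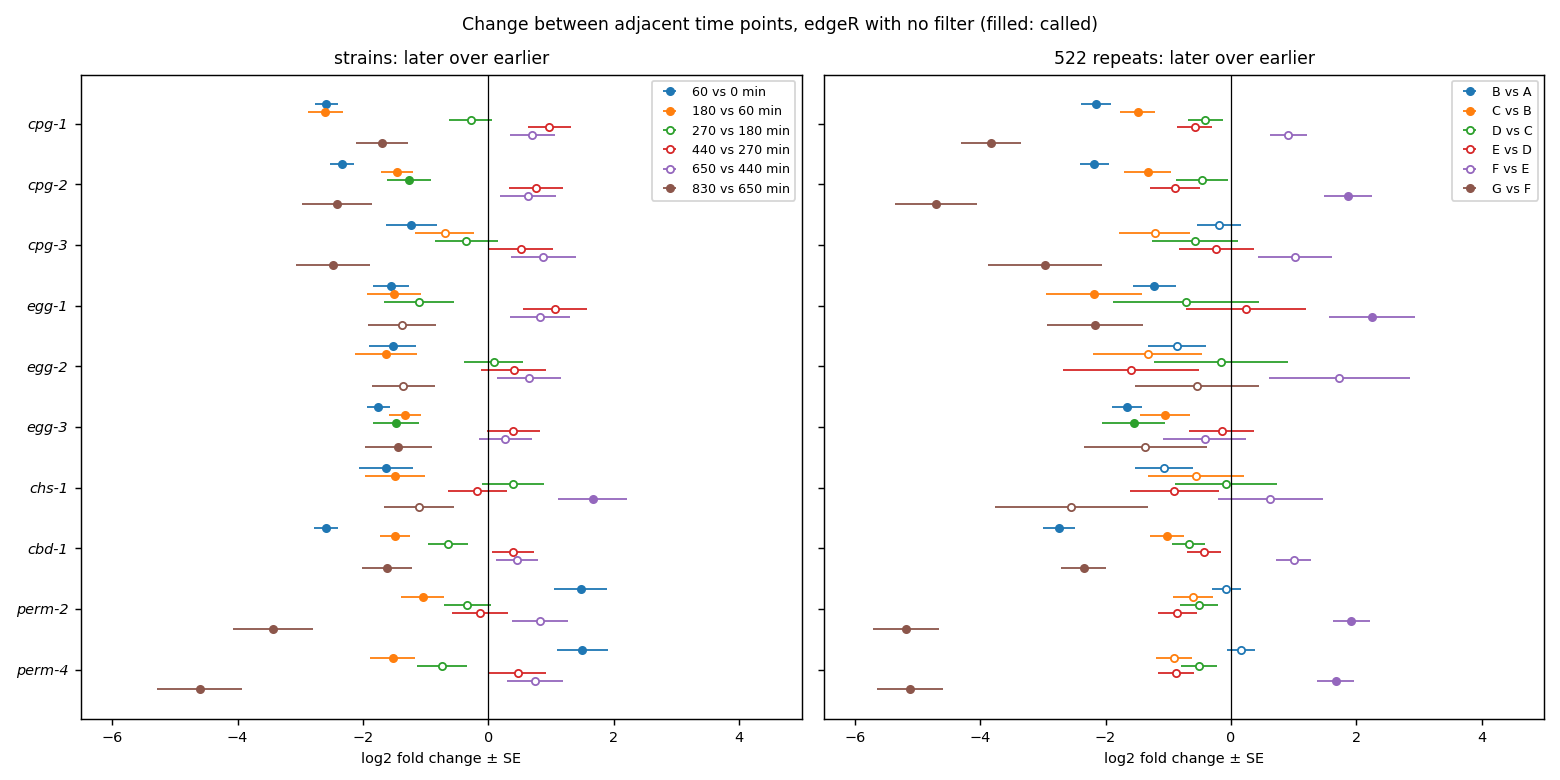
Log2 fold change (later over earlier, ± SE) of the 10 eggshell genes between adjacent time points, in the 20 strains (left) and in the 522 repeats (right), from edgeR with no filter; filled points were called. The first 2 and the last comparison lie mostly left of 0, and in the repeats cpg-2, egg-1, perm-2 and perm-4 lie right of 0 as filled points for F vs E.

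Between genes with related products, the changes of the first hour were set against each other strain by strain, as log2(CPM + 10). The change of cpg-2 minus that of cpg-1 was 0.27 ± 1.11 (SD, n = 20 strains; adjusted p = 0.304 over 3 pairs, two-sided sign-flip permutation test with 100000 resamples). For egg-2 minus egg-1 it was 0.40 ± 1.53 and for perm-4 minus perm-2 it was -0.54 ± 1.84, with the same adjusted permutation p. With 50 CPM in place of 10 CPM added, the first pair differed by 0.51 (adjusted p = 0.0236, permutation test) and the second by 0.38 (adjusted p = 0.0319). The answer for these pairs therefore depends on the constant that damps low counts. A larger constant shrinks the change more in the gene with fewer counts, here cpg-2 and egg-2. The differences with 50 CPM added therefore cannot separate the speed of the fall from the level.

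The repeats of strain 522, sequenced more deeply, followed most of this course. From A to B 5 of the 8 eggshell genes tested were lower, where 23.7% of 4466 genes were called lower. With no filter 5 of all 10 were lower, where the background was 10.7% of 12316 genes. In cpg-1 the B libraries had 425, 410 and 425 CPM and the A libraries 2067, 1777 and 2135 CPM. The 2 time points did not overlap, and the log2 fold change was -2.17 ± 0.27 (SE, adjusted p = 1.46e-07 by edgeR). In cbd-1 the B libraries had 425, 427 and 356 CPM and the A libraries 3656, 1806 and 2985 CPM, again with no overlap (log2 fold change -2.75 ± 0.33, SE). cpg-2, egg-3 and egg-1 were also lower, with log2 fold changes of -2.21 ± 0.22, -1.70 ± 0.23 and -1.26 ± 0.36 (SE). The call of egg-1 was lost without the second A library, with -0.86 (adjusted p = 0.0618 by edgeR), and in DESeq2 (adjusted p = 0.0514).

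For perm-2 and perm-4 the repeats gave no early rise. perm-4 had 344, 273 and 230 CPM at B and 197, 326 and 285 CPM at A, overlapping ranges, with a log2 fold change of 0.13 ± 0.21 (SE, adjusted p = 0.613 by edgeR). perm-2 had 210, 273 and 161 CPM at B and 120, 272 and 253 CPM at A, with -0.11 ± 0.25 (SE, adjusted p = 0.721). The strain course of the same line had no perm-4 count at 0 min and 377 CPM at 60 min. Whether the repeats and the strains differ in this first change was tested as an interaction over both sets with no filter, a test chosen after the values were seen. For perm-2 the change in the repeats minus that in the strains was -1.32 ± 0.79 on the log2 scale (SE, unadjusted p = 0.0981, adjusted p = 1.0 by edgeR over 14611 genes). None of the 10 genes reached an unadjusted p under 0.05.

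From B to C cpg-1 and cpg-2 were lower among 6 tested, where 24.1% of 2891 genes were called lower. Their levels at C were uneven: cpg-1 had 88.7, 97.3 and 323 CPM at C and 425, 410 and 425 CPM at B. The call of cpg-2 was also lost without the second C library (-0.88, adjusted p = 0.0516 by edgeR). The count of genes called was 0 without the first C library, 5 without the third C library and 4 without the third B library. From C to D edgeR called 0 of 4 (7.69% of 3198 genes were called lower), with 1 at an unadjusted p under 0.05, and DESeq2 also called 0. Without the first D library 4 were called lower, and without the first C library or the second D library 1 was. From D to E edgeR called 0 of 5, none at an unadjusted p under 0.05, where 20.5% of 6247 genes were called lower, and DESeq2 called 0. Without the third D library 4 were lower and without the second E library 1 was.

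From E to F 4 of 5 tested eggshell genes rose, and 25.3% of 5709 genes were called higher. With no filter 4 of all 10 rose, with egg-1 among them and cbd-1 just under 2-fold, where the background was 17.4% of 15652 genes. perm-2 had 106, 251 and 99.9 CPM at F and 4.56, 62.8 and 30.5 CPM at E, with no overlap and a log2 fold change of 1.98 ± 0.41 (SE, adjusted p = 0.000117 by edgeR). perm-4 had 124, 186 and 103 CPM at F and 4.56, 60.7 and 51.8 CPM at E, also without overlap (1.74 ± 0.35, SE). cpg-2 had 59.3, 97.1 and 61.3 CPM at F and 0, 25.1 and 27.4 CPM at E, without overlap (1.93 ± 0.43, SE). cbd-1 had 95.4, 235 and 102 CPM at F and 63.8, 69.1 and 73.2 CPM at E, without overlap (1.07 ± 0.31, SE), and its change was under 2-fold without the second F library (0.71) and without the second E library (0.95). cpg-1 had a log2 fold change of 0.98 ± 0.30 (SE), just under 2-fold. The fit to all 20 strains gave no such call for these genes between 440 and 650 min. The first 6 strains alone gave it for cpg-2, cbd-1, perm-2 and perm-4. That split was made after the values were seen, and no share over all genes is given for it. The difference between the repeats and all strains did not pass the test: for perm-2 it was 1.61 ± 0.89 (SE, unadjusted p = 0.0741, adjusted p = 0.873 by edgeR over 17282 genes).

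From F to G 7 of the 10 genes were lower with no filter, where the background was 6.24% of 15506 genes, and egg-2, egg-3 and chs-1 were not called (adjusted p between 0.187 and 0.779 by edgeR). The 5 that passed the filter, were among the 7 (13.4% of 4798 genes were called lower), with log2 fold changes from -5.17 ± 0.61 for perm-2 to -2.34 ± 0.40 for cbd-1 (SE). All 6 yolk genes were called lower from F to G, with a median of -6.36. The summed oocyte list was at 103 ± 23 CPM at G and 324 ± 34 CPM at F (SD, n = 3 each). Over the repeats from A to G all 10 were lower with no filter, where the background was 13.6% of 14422 genes, and so were the 6 that passed the filter, as were 31.3% of 4441 genes. The largest of the 6 falls was that of cpg-2, at -7.13 ± 0.46 (SE), and the smallest that of perm-2, at -4.72 ± 0.60 (SE). At G cpg-1 had 0, 11.2 and 0 CPM, against 2067, 1777 and 2135 CPM at A, and its pooled share at G was 0.00363 of that at A (exact 95% interval 0.00133 to 0.00793, counting error only).

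The genes whose course over the 140 strain libraries was most like the sum of the 10 were W05F2.3, mex-5, F18A1.7, pos-1 and puf-5, with Pearson's r of log2(CPM + 10) between 0.87 and 0.89. This is out of 5058 genes that reached a mean of 100 CPM at some stage, and it is a description, since all points share the stages and the library totals. mex-5 and pos-1 encode RNA-binding proteins that pattern the early embryo, and puf-5 an RNA-binding protein of the oocyte. Taken one at a time, a choice made after the values were seen, cpg-1 was most like hrde-1 and oma-2 (r = 0.91 and 0.90), egg-3 most like nos-2 (r = 0.88) and cpg-2 most like cey-3 (r = 0.89).

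perm-2 and perm-4 had other neighbours. Over the same 140 libraries perm-4 was most like the cuticle collagen gene col-140 (r = 0.82) and the yolk protein genes vit-3 and vit-5 (r = 0.81 and 0.80), and perm-2 most like col-122 and vit-4 (r = 0.73 and 0.71). The summed yolk list had r = 0.78 with perm-4 and 0.70 with perm-2, against 0.41 with cpg-1 and 0.39 with cbd-1. The summed oocyte list had r = 0.34 with perm-4 and 0.16 with perm-2, against 0.90 with cpg-1 and cbd-1 each. perm-2 and perm-4 had r = 0.76 with each other.

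In some single libraries the yolk list and this pair were high or low together, and in others they were not. Its sum ran from 0 to 6297 CPM at 60 min (median 850) and from 26.5 to 6672 CPM at 0 min (median 557), and its 6 genes were each counted at both stages. At 60 min strain 529 had 889 CPM of perm-4 and a yolk sum of 6297 CPM, and strain 593 had 0 CPM of both. At 0 min strain 566 had 361 CPM of perm-4, the highest of that stage, and a yolk sum of 6672 CPM. Against this, strain 575 at 650 min had 0 CPM of perm-4 and a yolk sum of 1247.5 CPM. The third E repeat had 30.5 CPM of perm-2 at a yolk sum of 1859 CPM. The first F repeat had 106 CPM of perm-2 at a yolk sum of 1797 CPM. Strain 522 had a yolk sum of 4663 CPM at 60 min and 74.8 CPM at 0 min in the strain course, where its perm-4 was at 377 and 0 CPM, while its A repeats had 2524, 5493 and 4120 CPM. In the repeats the yolk sum was 1797, 2750 and 1838 CPM at F and 91.2, 1131 and 1859 CPM at E, and 5 of the 6 yolk genes were called higher at F. The oocyte sum was 304, 364 and 305 CPM at F and 246, 415 and 360 CPM at E, with 0 of 4 tested called higher. Of all 5709 genes that passed the filter, 25.3% were called higher at F, so 0 of 4 says little about that list. At G the yolk sum was 4.95, 24.3 and 60.2 CPM. The part of the yolk signal in the changes of perm-2, perm-4 and the other genes was not tested.

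**Figure D3:**
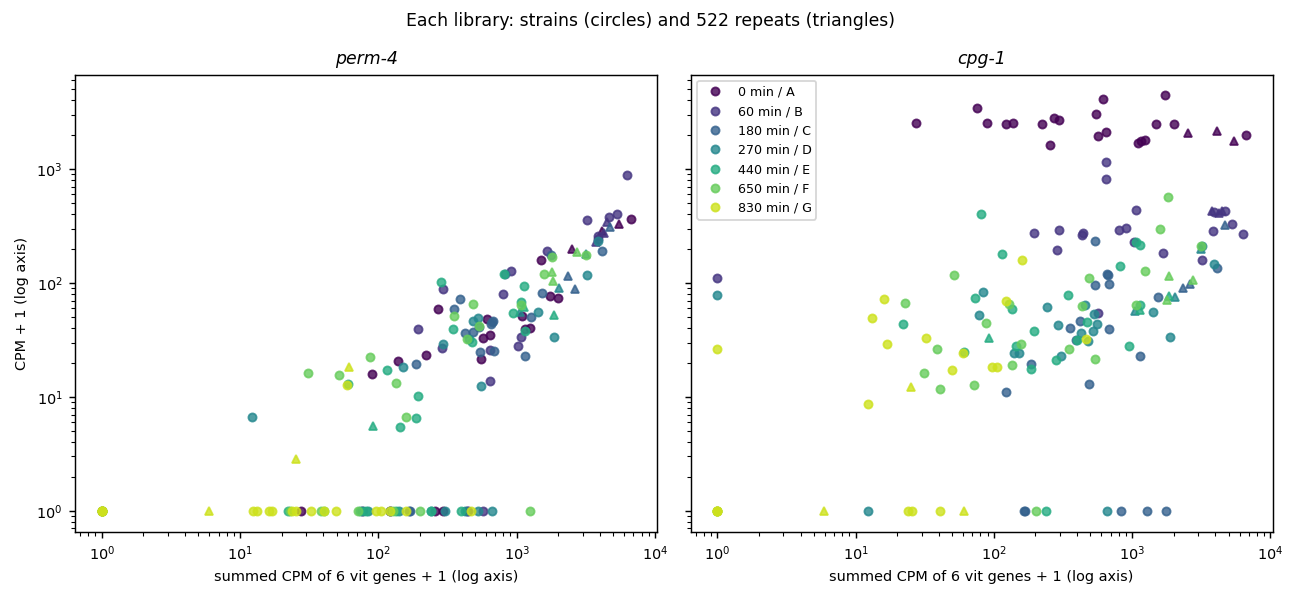
Level of perm-4 (left) and cpg-1 (right) against the summed level of 6 vit genes in each of the 140 strain libraries (circles) and 21 repeats (triangles), all as CPM + 1 on log axes, coloured by stage. Over the 140 strain libraries perm-4 was mostly higher where the yolk sum was higher, with wide spread. In order of time, perm-4 had 0 counts in 5, 4, 3, 9, 7, 7 and 19 of the 20 libraries of a stage. The 830 min libraries therefore cannot show such a relation. Strain 575 at 650 min had 0 CPM of perm-4 at a yolk sum of 1247.5 CPM. The 0 min and A libraries of cpg-1 lie at 1612 CPM or more at any yolk level.

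Strains differed in the level of some eggshell genes. In a fit to all 140 libraries with stage and strain as terms, cpg-1, cpg-2 and cbd-1 passed the test for a strain effect (adjusted p = 0.000631, 0.00217 and 0.000737 by edgeR) and egg-3 did not (adjusted p = 0.61). As 54.8% of the 2970 genes tested passed, 3 of 4 is not a result about the eggshell genes. At 0 min cbd-1 had 738 to 1422 CPM in the 6 strains listed first in the table (550, 570, 502, 555, N2 and 575) and 1790 to 4924 CPM in the other 14 strains, with no overlap. This order was noticed after the values were seen. Of 2515 genes with a mean of 100 CPM or more at 0 min, 2.47% had no overlap between these sets. cpg-1 overlapped, at 1756 to 3036 CPM in the 6 strains and 1612 to 4434 CPM in the 14, and so did cpg-2, egg-1 and egg-3. The summed oocyte list ran from 9511 to 14156 CPM in the 6 strains and from 12732 to 21829 CPM in the 14. Its part in the difference of cbd-1 was not tested. N2 had 795 CPM of cbd-1 at 0 min, with 18 strains above it, and 2481 CPM of cpg-1, with 10 strains above it.

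**Figure D4:**
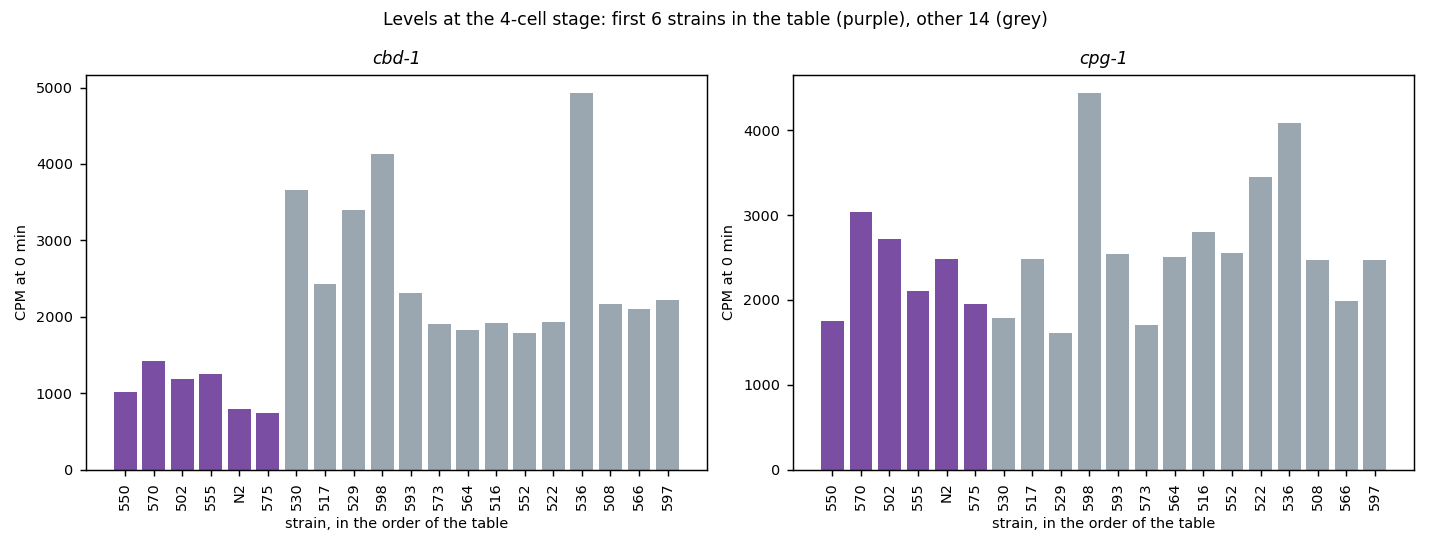
CPM of cbd-1 (left) and cpg-1 (right) at 0 min in each strain, in the order of the table, with 1 library per bar. The 6 strains listed first (purple) lie between 738 and 1422 CPM for cbd-1, below all other 14 (grey), and overlap them for cpg-1.

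The partners of the eggshell genes were examined by lists. In the list for egg activation 3 of 7 genes were tested in the strains between 0 and 60 min, with 1 higher and 2 lower. Of all 1344 genes tested 133 were called higher and 295 lower. Members of these lists that are high at 1 of the 2 time points pass the filter through it, as above. mbk-2, a kinase that acts at the passage from oocyte to embryo, fell to 358 ± 78 CPM at 60 min, against 840 ± 228 CPM at 0 min (SD, n = 20 each; log2 fold change -1.21 ± 0.12, SE). cav-1, a caveolin, rose to 854 ± 431 CPM at 60 min, against 155 ± 85 CPM at 0 min, and to 5424 ± 1596 CPM at 180 min. In the chitin precursor list gna-2, which makes N-acetylglucosamine phosphate, was the one gene tested, and it fell, to 170 ± 89 CPM at 60 min, against 551 ± 153 CPM at 0 min (log2 fold change -1.63 ± 0.17, SE). At 830 min gna-2 was at 2.69 ± 7.50 CPM.

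Of the 9 chondroitin synthesis genes, the chondroitin synthase gene sqv-5 was the one tested in the strains, and it fell to 75.0 ± 52.9 CPM at 60 min, against 283 ± 77 CPM at 0 min. In the repeats 5 of the 9 were tested between A and B and all 5 fell, among them sqv-3 (53.7 ± 31.8 CPM at B and 343 ± 68 CPM at A, SD, n = 3 each) and sqv-1 (9.32 ± 8.18 CPM at B and 116 ± 21 CPM at A). Of all 4466 genes tested between A and B, 23.7% were called lower. sqv-5 and sqv-1 rose from E to F, with log2 fold changes of 1.97 ± 0.25 and 2.72 ± 0.33 (SE).

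Among the other chondroitin proteoglycan genes 1 of 8 was tested between 0 and 60 min and 0 were called. This was cpg-8, at 1599 ± 319 CPM at 60 min and 892 ± 175 CPM at 0 min, and cpg-4 was at 30.7 ± 29.4 CPM at 60 min and 89.8 ± 51.5 CPM at 0 min. cpg-20 and cpg-24 rose to 370 ± 107 and 331 ± 136 CPM at 270 min, against 50.5 ± 34.4 and 69.0 ± 37.3 CPM at 180 min, and both fell by 440 min, to 6.29 ± 14.9 and 36.6 ± 34.3 CPM. The name of a chondroitin proteoglycan thus covered genes with maternal, mid-embryonic and, in the repeats, late levels, as cpg-22 had a mean of 290 ± 35 CPM at F and was at 0 CPM at E.

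Of the genes for the inner layer and permeability barrier, perm-3 was tested between 0 and 60 min and fell, to 98.3 ± 60.2 CPM at 60 min, against 383 ± 110 CPM at 0 min (log2 fold change -1.73 ± 0.18, SE). In the repeats 4 of 8 were tested between A and B and 4 fell, perm-5 to 14.7 ± 4.5 CPM at B, against 100.2 ± 20.2 CPM at A. The share called lower over all 4466 genes tested was 23.7%. fasn-1, the fatty acid synthase, rose to 427 ± 197 CPM at 180 min, against 16.9 ± 33.5 CPM at 60 min. Of the 7 oocyte and early embryo genes, all were tested between 0 and 60 min and 6 fell, where 21.9% of 1344 genes were called lower. oma-2, an oocyte maturation factor, was at 245 ± 136 CPM at 60 min and 1570 ± 284 CPM at 0 min.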

How the data were processed

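RNA from pools of 10 whole embryos was measured by CEL-Seq. The deposited tables hold raw counts per gene as whole numbers. The reads were handled with CASAVA 1.8 and Bowtie2 2.1.0, per the submitters' processing notes; the sources used here do not give the build, annotation, counting program or use of strand, so no coordinates are printed and overlapping or antisense genes cannot be told apart. No molecular identifiers are stated, so intervals cover counting error only. The labels do not state whether pools of a strain had separate cultures; p-values then cover only the spread among these pools, part of which may be technical. In the repeats 38.8% to 70.2% of reads did not align, and of the aligned ones 17.8% to 47.7% lay outside features; these rows were left out of totals. Symbols were matched by locus tag to the RefSeq annotation for 20063 of 20687 genes, and 624 did not match. Among the deposited columns, 7 more columns of per-sample values were not used.

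Pairs of time points were compared with edgeR 4.0.16 (R 4.3.3; quasi-likelihood test, TMM scaling, filterByExpr), on the libraries of the pair alone. SE is the log2 fold change divided by the square root of F. Alternatives were RLE scaling, no filter, DESeq2 1.42.0, strain or replicate number as a block, leaving out libraries, and 1 fit to all stages. Scripts were tested on simulated data. The strains pair libraries across stages, as the labels name them; after subtracting stage means, adjacent libraries of 1 strain had median correlations of 0.075 to 0.103 over 4131 genes. Permutation tests used Python 3.11.15 with SciPy 1.17.1.

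All 10 eggshell genes are named, with at most 2 called genes per other list (smallest p, or the highest at 0 min where none was called) and the 5 genes most like the eggshell sum. Values of such a gene at a neighbouring stage, and the genes most like single members, were added after the values were seen. The members and lists were chosen with earlier results of these data known.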

Additional observations from a re-analysis of the deposited data

How the results depend on the processing

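The 4 falls between 0 and 60 min and from 0 to 830 min, and the 2 falls between 60 and 180 min, were also called with RLE scaling, in DESeq2, with strain as a replicate block (4, 4 and 2 genes) and without the strains with a shallow library. The counts that follow are of eggshell genes called in either direction. Leaving the filter out gave 10, 9, 2, 0, 1, 7 and 10 genes for the 6 adjacent pairs of stages and 830 vs 0 min, because low genes then enter. For 60 vs 0 min 8 were lower and 2 higher, and the 1 for 650 vs 440 min was higher. It gave 5, 1 and 10 for C vs B, D vs C and G vs A. Over all genes 1573 of 12508 were lower for C vs B and 364 of 13101 for D vs C. One fit to all stages gave 4 genes for 180 vs 60 min, 2 for 270 vs 180 min and 4 for 830 vs 650 min. With the filter, the first 6 strains gave 1 gene for 180 vs 60 min and the other 14 gave 0, as fewer passed the filter. With no filter the first 6 strains gave 5 genes for 180 vs 60 min, 0 for 270 vs 180 min, 1 for 440 vs 270 min and 5 for 650 vs 440 min, and the other 14 gave 0 for 650 vs 440 min and 2 for 830 vs 650 min. For 60 vs 0 min these parts gave 7 and 8 genes, and in the other 14 strains perm-2 and perm-4 were the ones called higher. There perm-2 and perm-4 turned round in the first 6 strains, to -0.027 and -0.39 for 60 vs 0 min and to 0.40 and 0.81 for 180 vs 60 min; the cause was not tested. With no filter, strain as a replicate block gave 1 gene for 440 vs 270 min, 0 for 650 vs 440 min and 5 for 830 vs 650 min. RLE scaling with no filter turned 2018 higher and 1585 lower genes of 60 vs 0 min into 1531 and 1936, and with it the median of all genes moved by -0.16. Leaving out 1 strain at a time gave 9 to 10 genes for 60 vs 0 min with no filter. Leaving out 1 repeat at a time gave 4 to 6 genes for B vs A, 0 to 5 for C vs B, 0 to 4 for D vs C, 0 to 4 for E vs D, 3 to 5 for F vs E, 5 to 6 for G vs F and 6 to 9 for G vs A. In the repeats the numbers do not pair libraries: same-numbered libraries had median correlations of -0.177 to -0.0316, and their replicate block gave 4 genes for B vs A and 5 for F vs E. With 50 CPM added the pair differences were 0.51 for cpg-2 minus cpg-1 and 0.38 for egg-2 minus egg-1. That constant shrinks the change more in the gene with fewer counts. With RLE scaling 2 genes, not 3, showed a strain effect, cpg-2 being lost. Depth limits egg-2, cpg-3 and chs-1 most, since most later libraries hold 0 counts of them. These alternatives for the fits with no filter were chosen after seeing the data.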
